A study of Anthurium andraeanum with 18 samples.

Results

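The chloroplast ribosome and the proteins that drive plastid gene expression were followed in leaf RNA of Anthurium andraeanum, a flowering ornamental aroid, under rising heat. Members were the assembled genes whose text description named a chloroplast 30S or 50S ribosomal protein, a chloroplast elongation factor Tu, G or Ts, an RNA polymerase sigma factor of the sig series, or a plastid transcriptionally active chromosome (PTAC) protein. This rule used no expression value, and it took 91 of 158,487 assembled genes, of which 39,786 carried a description. Full-flowering plants of 2 materials, which the labels call MH and Ken without saying more, were kept in growth chambers. Unheated plants of each material were held at 25 °C. Heat began with 3 days at 38/33 °C (day/night) and went on, for the second heated group, with 3 days at 40/35 °C. Below, a group is named by its material and its regime (control, 38 or 40, so that MH 40 had both heat steps), and each of the 6 groups had 3 libraries. Titles number these libraries as biological replicates, and nothing says whether a library holds 1 plant or a pool.

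Chloroplasts keep a small genome and a bacterial-type ribosome, built from a small (30S) and a large (50S) subunit. Some ribosomal proteins are still made from the plastid genome, while the others are encoded in the nucleus, translated in the cytosol and imported. A bacterial-type RNA polymerase with plastid-encoded core subunits transcribes most photosynthesis genes. It needs nuclear sigma factors to recognise promoters, and a set of nuclear PTAC proteins is bound to the polymerase or to the plastid chromosome. In leaves this machinery serves mainly to build and renew the photosynthetic complexes, whose core subunits are plastid products.

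The 91 members carried 64 different descriptions, which name 63 proteins. The nuclear-encoded ribosomal proteins made up 46 members (17 of the 30S and 29 of the 50S subunit), and 20 more belonged to families that flowering-plant plastid genomes encode. Of these 20, 18 matched an entry whose text named a plastid genome. The other members were 5 elongation factors, 14 sigma factors and 6 PTAC proteins. Of the 91, 79 passed the filter on low counts and were tested. The 12 that did not pass were short fragments of at most 342 bases with a mean of at most 1.27 TPM (transcripts scaled to a fixed total per library), and 6 of them were of plastid-encoded families. Several proteins were represented by more than 1 assembled gene, such as SIGA by 6 and L9 by 3, and reads could be shared between such entries.

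Libraries held 15,845,190 to 22,867,268 estimated counts, and the members took 0.136% to 0.827% of them. Within groups, scaled log2 counts of pairs of libraries correlated across genes at r = 0.865 to 0.969. Replicate 3 of MH 38 stood apart from the other two of its group. It was the highest of the 3 in 60 of the 79 tested members, and its nuclear ribosomal proteins summed to 1724 TPM against 1186 and 1047. Counts of members and the fitted changes, sums and ratios named below that rest on MH 38 are therefore given with and without it. The summed TPM of 29 light-harvesting chlorophyll a-b binding proteins, which mark leaf mesophyll, was 56419.5, 58324 and 70434 in Ken control and 104316, 86574 and 101971 in MH control. These mesophyll markers were thus abundant in the unheated libraries. The same sum was 1514, 813 and 20579 in MH 38, so replicate 3 was high there as well.

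Transcripts of this machinery fell steeply under heat in both materials. In Ken 38 against its control, 62 of the 79 tested members fell and 1 rose, with a median log2 change of -2.25. Among all 70,022 tested genes, 15.9% fell and 20.3% rose. In Ken 40 against its control, 68 members fell and 1 rose (median -2.04), where 20.7% of all tested genes fell and 25.1% rose. MH 38 against MH control gave 62 falls and 2 rises (median -2.32) beside 17.3% and 30.1% of all genes (47.4% in either direction). MH 40 against MH control gave 67 falls and 1 rise with the lowest median of the 4 heat comparisons, -3.57, beside 24.6% and 42.7% of all genes. Here a gene was called to rise or fall at a Benjamini-Hochberg adjusted p below 0.05 over all tested genes in edgeR's quasi-likelihood test. Among all called genes, rises made up 56.1%, 54.8%, 63.5% and 63.4% in these 4 comparisons, and 76.6%, 68.4%, 85.2% and 79.3% with library totals as the scaling, under which 57, 59, 56 and 61 members fell. Described genes as a whole had median log2 changes of only -0.07, -0.10, -0.08 and -0.29 in these 4 comparisons, and 29.2%, 32.5%, 30.6% and 42.1% of them fell. Without MH 38 replicate 3, 63 members fell and 2 rose in MH 38, with a median of -2.82, and among the nuclear ribosomal proteins 41 fell and 1 rose (median -3.08).

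Of the 62 members that fell in Ken 38, 59 were among the 62 that fell in MH 38, which is 95.2% of each list. At 40/35 °C the shared falls numbered 61, or 89.7% of the 68 in Ken and 91.0% of the 67 in MH. Most of the 79 tested members fell in each material at each regime. A large overlap would therefore arise even without agreement gene by gene. Across the 79 members, the log2 changes of Ken and MH, which share no library, correlated at Pearson r = 0.72 (Spearman 0.77) at 38/33 °C and at 0.64 (0.66) at 40/35 °C. These correlations keep a short L12 entry with 1 count in all of Ken 38. They also keep an S12-B entry with 0 counts in MH control. Without MH 38 replicate 3, 59 of 63 falls in MH 38 were shared and r was 0.72 (0.79). These values describe agreement across genes that share libraries, and genes are not independent replicates. In bulk leaf RNA, fewer cells of a type and less RNA per cell cannot be told apart.

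**Figure D1:**
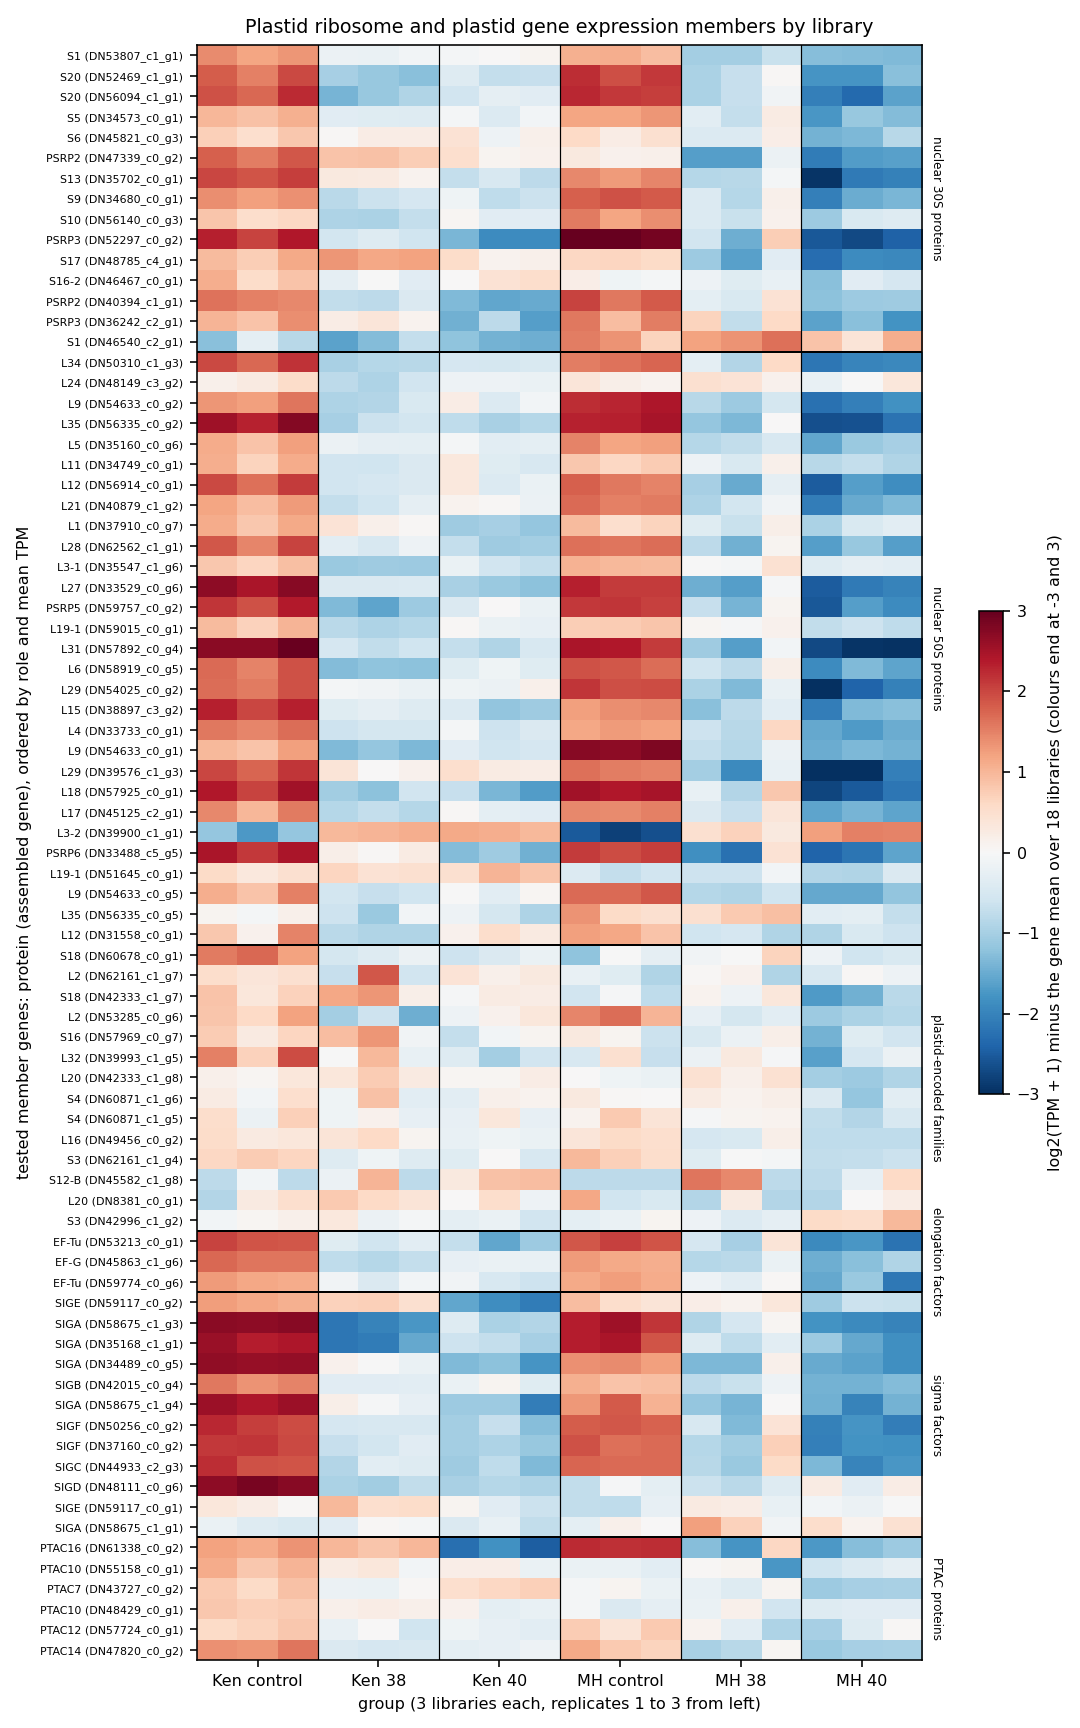
Heat map of the 79 tested members (rows, grouped by role) in 18 libraries (columns), coloured by log2(TPM + 1) minus the gene's mean over the libraries. The control columns of both materials are red over most rows and the heated columns blue, with L3-2 in the reverse order and MH 38 replicate 3 paler than the other two.

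The summed level of the 46 nuclear ribosomal protein genes showed the size of the loss. Control libraries of Ken summed to 4761, 4074 and 5231 TPM, those of Ken 38 to 1232, 1213 and 1282 and those of Ken 40 to 1506, 1288 and 1314. For MH the sums were 4841, 4541 and 4662 TPM in the control, 1186, 1047 and 1724 in MH 38 and 621, 762 and 830.1 in MH 40. Both controls started from nearly the same mean, 4689 ± 582 TPM in Ken and 4681 ± 151 in MH (SD, n = 3), and no heated library reached a control library. The mean was 3.77 times lower in Ken 38 and 3.42 times lower in Ken 40, against 3.55 and 6.35 times in MH 38 and MH 40. Over replicates 1 and 2 of MH 38 alone it was 4.19 times lower. The Ken 40 libraries lay just above those of Ken 38, whereas the MH libraries at 40/35 °C all lay below those at 38/33 °C. The median of the 44 tested genes was 100.045 TPM in Ken control and 100.1 in MH control, and 26.2 TPM in Ken 40 against 9.64 in MH 40.

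Among the 15 tested nuclear 30S proteins, none rose under heat: 13 (38/33 °C) and 15 (40/35 °C) fell in Ken, and 14 and 14 in MH. Their median log2 changes were -1.98, -1.93, -2.38 and -3.89. Leaving out MH 38 replicate 3, 14 fell in MH 38 (median -2.82). The highest of them was S1 (TRINITY_DN53807_c1_g1), whose bacterial counterpart brings mRNA to the small subunit. In Ken, S1 was at 207, 177 and 193 TPM in the control, 68.2, 66.8 and 73.2 at 38/33 °C and 73.4, 77.3 and 82 at 40/35 °C. MH libraries were at 163, 164 and 148 TPM in the control, 37.2, 37.5 and 48.2 at 38/33 °C and 31.2, 30.9 and 30.1 at 40/35 °C. Every heated library was below every control library of its material, and the MH 40 libraries were the lowest of all. The log2 changes against control were -1.98 ± 0.16 (SE, adjusted p = 1.57e-09) in Ken 38, -1.72 in Ken 40, -2.65 in MH 38 (-2.85 without replicate 3) and -3.16 ± 0.16 (SE, adjusted p = 9.91e-13) in MH 40.

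S20 (TRINITY_DN56094_c1_g1), which binds the small-subunit RNA early in bacterial assembly, fell more. Its Ken libraries read 134, 119 and 169 TPM in the control, 12.6, 15.3 and 18.2 at 38/33 °C and 23.1, 28.9 and 27.6 at 40/35 °C. Those of MH read 172, 156 and 150.0 TPM in the control, 17.7, 21.3 and 32.1 at 38/33 °C and 7.7, 6.17 and 10.8 at 40/35 °C. Ken lost most of this transcript at the first heat step and regained a little at the second, with a log2 change from 38/33 to 40/35 °C of 0.86 ± 0.24 (SE, adjusted p = 0.00984), whereas MH lost more, by -1.58 ± 0.25 (SE, adjusted p = 9.58e-05), or -1.24 (adjusted p = 3.35e-05) without MH 38 replicate 3. A second S20 entry (TRINITY_DN52469_c1_g1) went the same way against control, from 181 ± 29.2 to 34.3 ± 4.42 TPM in Ken and from 226 ± 22.1 to 16.9 ± 3.91 in MH at 40/35 °C (mean ± SD, n = 3). S13 (TRINITY_DN35702_c0_g1), a protein of the small subunit's head in bacteria, was lower at each step in every library, from 125, 116 and 132 TPM in Ken control to 18.2, 21.6 and 17.2 in Ken 40. Its MH libraries went from 85.4, 75.6 and 86.6 TPM to 3.09, 6.3 and 6.79. The corresponding log2 changes were -3.12 ± 0.26 (SE, adjusted p = 5.87e-09) and -4.67 ± 0.29 (SE, adjusted p = 2.20e-11), with no overlap of libraries. In Ken 40 this absence of overlap was required by the rule under which S13 was named.

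The small subunit also carries proteins that bacteria lack, the plastid-specific ribosomal proteins (PSRP). PSRP2 (TRINITY_DN40394_c1_g1), an RNA-binding protein, was at 21.7, 20.2 and 19.1 TPM in the control, 3.43, 3.32 and 4.51 at 38/33 °C and 1.96, 1.51 and 1.59 at 40/35 °C in Ken. Its MH values were 28.9, 21.3 and 25.3 TPM in the control, 5.07, 4.42 and 8.93 at 38/33 °C and 2.17, 2.45 and 2.54 at 40/35 °C. It fell in both materials (log2 -3.99 ± 0.29 (SE, adjusted p = 2.83e-10) in Ken 40 and -4.14 ± 0.28 (SE, adjusted p = 7.43e-11) in MH 40), and the difference of these 2 responses was -0.15 ± 0.37 (SE, adjusted p = 0.883). PSRP3 (TRINITY_DN52297_c0_g2), chosen after its values were seen, had the largest fall among the 30S proteins in MH 40. Its MH libraries were at 148, 147 and 131 TPM in the control, 11.2, 5.57 and 29.1 at 38/33 °C and 2.09, 1.77 and 2.36 at 40/35 °C, a log2 change of -7.04 ± 0.60 (SE, adjusted p = 2.74e-07) at the second step against control.

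2 entries of the 30S group, also chosen after their values were seen, departed from the rest. S17 (TRINITY_DN48785_c4_g1), an early RNA-binding protein of the bacterial small subunit, was at 47.5, 41.5 and 54.5 TPM in the control, 62.7, 55.5 and 57.7 at 38/33 °C and 36.3, 26.1 and 26.9 at 40/35 °C in Ken, so that all Ken 38 libraries were above all control libraries on the TPM scale. In MH it was at 37.7, 38.6 and 36.7 TPM in the control, 10.8, 7.15 and 19.1 at 38/33 °C and 4.22, 5.8 and 5.63 at 40/35 °C, with no overlap between groups. The log2 change in Ken 38 was not called (-0.16 ± 0.27 (SE, adjusted p = 0.695); with library totals as the scaling it was 0.42, adjusted p = 0.15), while MH 38 changed by -2.27 ± 0.28 (SE, adjusted p = 4.39e-06), or -2.82 without its replicate 3. The difference of the responses at 38/33 °C was -2.11 ± 0.39 (SE, adjusted p = 0.00162) and -2.66 (adjusted p = 4.09e-10) without MH 38 replicate 3. The second exception, a further S1 entry (TRINITY_DN46540_c2_g1), was scarce in Ken, at 0.34, 1.6 and 0.81 TPM in the control, and stood at 8.35, 7.18 and 4.11 TPM in MH control. It was not called in MH 38 (log2 0.18 ± 0.44 (SE, adjusted p = 0.761); 0.08 without replicate 3) or MH 40 (-0.47 ± 0.44 (SE, adjusted p = 0.348)), and MH exceeded Ken in the controls by 2.40 ± 0.48 (SE, adjusted p = 8.10e-04).

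All 29 nuclear 50S proteins were tested. Of these, 26 fell and 1 rose in Ken 38, 25 fell and 1 rose in Ken 40, 26 fell and 1 rose in MH 38, and 28 fell and 1 rose in MH 40. Their median log2 changes were -2.63, -2.06, -2.87 and -4.24. In MH 38 without its replicate 3, 27 fell and 1 rose (median -3.27). L34 (TRINITY_DN50310_c1_g3), a small protein of the large subunit, had the highest mean TPM of the group over the 18 libraries and in Ken control, though not in MH control, where an L9 entry was higher. Its Ken libraries were at 421, 356 and 479.9 TPM in the control, 54.1, 58.8 and 58.98 at 38/33 °C and 75.1, 73.2 and 77.7 at 40/35 °C. In MH they were at 313, 333 and 359 TPM in the control, 86.3, 57.9 and 161 at 38/33 °C and 22.7, 26.4 and 27.02 at 40/35 °C. MH 38 replicate 3 held about as much again as the second highest of that group, and it was still below every control library. Log2 changes were -3.39 ± 0.28 (SE, adjusted p = 1.24e-08) and -2.94 in Ken and -2.49 (-3.02 without replicate 3) and -4.40 ± 0.30 (SE, adjusted p = 2.60e-10) in MH.

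L6 (TRINITY_DN58919_c0_g5), which in bacteria lies near the site where translation factors bind, was at 109, 93.9 and 127 TPM in the control, 12.9, 13.7 and 13.4 at 38/33 °C and 25.4, 30.1 and 25.6 at 40/35 °C in Ken. MH gave 126, 123 and 108 TPM in the control, 21.3, 18.8 and 37.5 at 38/33 °C and 8.24, 12.7 and 10.3 at 40/35 °C. The order of the heat steps was therefore opposite in the 2 materials: from 38/33 to 40/35 °C L6 rose by 1.10 ± 0.24 (SE, adjusted p = 0.00139) in Ken and changed by -1.38 ± 0.24 (SE, adjusted p = 2.55e-04) in MH, or -0.95 (adjusted p = 1.30e-04) without MH 38 replicate 3. L31 (TRINITY_DN57892_c0_g4), chosen after its values were seen, had the largest fall of the 50S proteins in MH 40, from 126, 121 and 98.1 to 2.55, 2.02 and 1.96 TPM (log2 -6.49 ± 0.38 (SE, adjusted p = 2.48e-10)). In Ken it ended at 13, 11.4 and 15.5 TPM from 149.7, 150.3 and 180.3. L28 (TRINITY_DN62562_c1_g1) fell in both materials, but the size of its fall differed between the scales. Its mean TPM was 6.94 times lower in Ken 40 and 9.17 times lower in MH 40 than in the controls, whereas the fitted count changes were -2.25 ± 0.18 (SE, adjusted p = 1.99e-09) and -1.61 ± 0.18 (SE, adjusted p = 1.06e-07) on the log2 scale. The cause of this gap was not tested.

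L9, a two-domain protein that reaches out from the large subunit in bacteria, was carried by 3 entries whose responses differed between the materials. The most abundant of them (TRINITY_DN54633_c0_g2) was at 181, 167 and 218 TPM in the control, 37.3, 38.1 and 51.8 at 38/33 °C and 83.8, 53.8 and 67.4 at 40/35 °C in Ken. In MH the same entry was at 337, 353 and 386 TPM in the control, 39.9, 32.8 and 49.6 at 38/33 °C and 14.3, 16.4 and 19.5 at 40/35 °C. MH control was above Ken control in every library, and MH 40 was below Ken 40 in every library. The difference of the responses at 40/35 °C was -3.26 ± 0.32 (SE, adjusted p = 2.59e-07). The second entry (TRINITY_DN54633_c0_g1) repeated this order, with 49.5 ± 6.49, 9.27 ± 0.717 and 16.9 ± 1.65 TPM in Ken and 164 ± 6.08, 15.9 ± 4.43 and 8.24 ± 0.465 in MH (mean ± SD, n = 3). Its difference of responses was -3.04 ± 0.30 (SE, adjusted p = 3.23e-07), and that of the remaining entry (TRINITY_DN54633_c0_g5) was -2.61 ± 0.38 (SE, adjusted p = 3.08e-05). The 3 entries share a component of the assembly and are not independent.

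**Figure D2:**
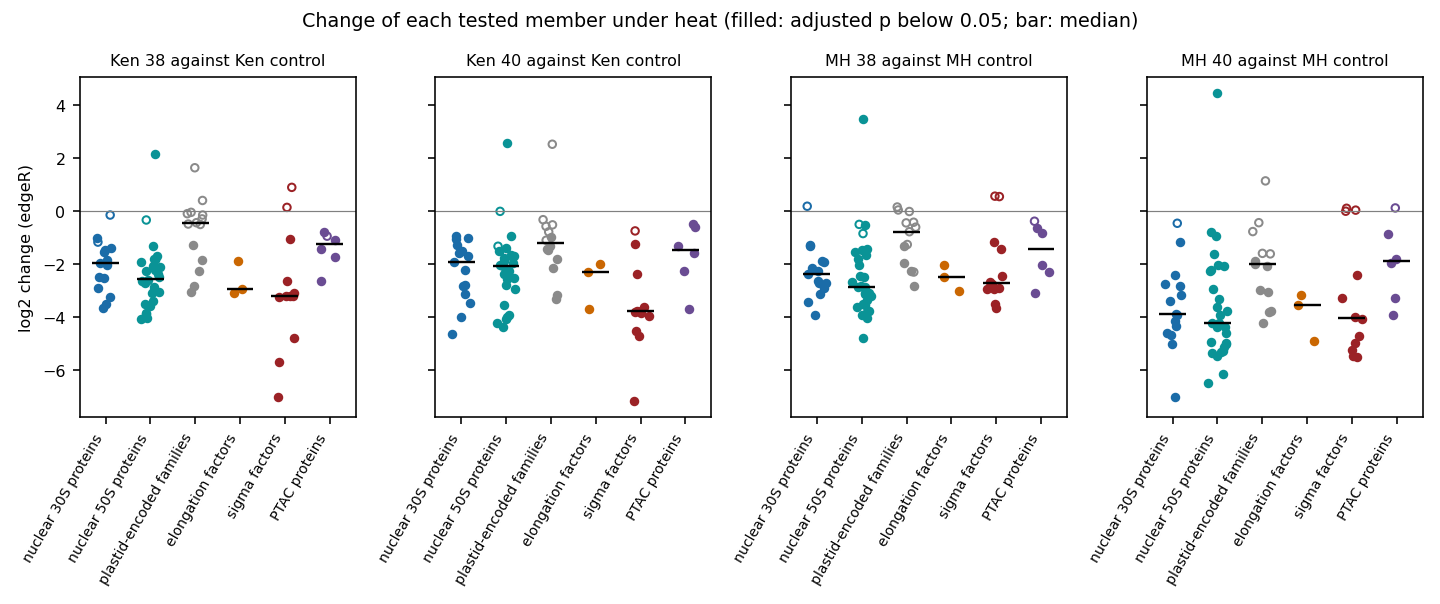
Log2 change (edgeR) of each tested member against the control of its material in the 4 heat comparisons, by role; filled points passed an adjusted p of 0.05 and bars are medians. Nearly all nuclear ribosomal proteins, elongation factors and sigma factors lie below 0, L3-2 lies above it in each panel, and plastid-encoded families and PTAC proteins lie nearest to it. A change against a group with 3 counts or fewer in all is not drawn.

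The 1 member that rose in all 4 heat comparisons was L3-2 (TRINITY_DN39900_c1_g1). L3 is one of the first proteins to bind the large-subunit RNA in bacteria and reaches towards the peptidyl transferase centre. L3-2 was at 7.97, 5.08 and 7.91 TPM in the control, 38.4, 39.5 and 41.9 at 38/33 °C and 42.6, 41.8 and 38.2 at 40/35 °C in Ken. The MH libraries held 2.5, 1.89 and 2.24 TPM in the control, 26.8, 31.1 and 23.4 at 38/33 °C and 45.95, 55.9 and 55.6 at 40/35 °C. All heated libraries were above all control libraries, and in MH the libraries of 40/35 °C were above those of 38/33 °C. The log2 changes were 2.15 ± 0.18 (SE, adjusted p = 3.72e-09) and 2.55 ± 0.18 (SE, adjusted p = 2.87e-10) in Ken and 3.48 ± 0.19 (SE, adjusted p = 2.34e-11) and 4.45 ± 0.20 (SE, adjusted p = 1.93e-13) in MH. The rise was larger in MH, by 1.33 ± 0.25 (SE, adjusted p = 0.00145) at 38/33 °C and 1.91 ± 0.25 (SE, adjusted p = 9.89e-06) at 40/35 °C. Without MH 38 replicate 3 the first of these was 1.37 (adjusted p = 9.98e-05) and the change in MH 38 3.53.

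L3-1 (TRINITY_DN35547_c1_g6), the other gene described as plastid L3 and chosen after its values were seen, moved the opposite way. It fell from 87.01, 78.5 and 93.01 TPM in Ken control to 42.8, 32.7 and 29.9 in Ken 40 and from 104, 98.97 and 97.3 in MH control to 37.7, 41.02 and 39.7 in MH 40. Its log2 changes at 40/35 °C were -1.68 ± 0.19 (SE, adjusted p = 2.28e-07) and -2.09 ± 0.19 (SE, adjusted p = 5.75e-09). In both controls L3-1 was the higher of the pair by TPM in every library, whereas L3-2 was the higher in all 3 libraries of Ken 38, in 2 of 3 of Ken 40, in none of MH 38 and in all 3 of MH 40.

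L24, the L19-1 pair and an L12 entry were named after their values were seen. L24 (TRINITY_DN48149_c3_g2), which starts large-subunit assembly in bacteria, was at 177, 191 and 233 TPM in the control, 90.7, 83.3 and 105 at 38/33 °C and 143, 142 and 138 at 40/35 °C in Ken. In MH it was at 205, 179 and 169 TPM in the control, 223, 209 and 173 at 38/33 °C and 136, 157 and 201 at 40/35 °C, with overlap between all groups. It fell in Ken 38 (log2 -1.69 ± 0.16 (SE, adjusted p = 3.28e-08)) and recovered in part from 38/33 to 40/35 °C (0.75 ± 0.16 (SE, adjusted p = 0.00112)). In MH 38 and MH 40 it was called lower (-0.52 and -0.79), but scaling by library totals turned both values to 0.32 and 0.21, neither of them called (adjusted p = 0.0873 and 0.236). The difference of responses at 38/33 °C was 1.16 ± 0.23 (SE, adjusted p = 0.00171). That difference was 1.22 (adjusted p = 6.85e-05) and the change in MH 38 -0.46 (adjusted p = 0.0224) without MH 38 replicate 3. L24 became the most abundant tested nuclear ribosomal protein gene in all 4 heated groups by mean TPM. L19-1 was represented by an abundant entry that fell (TRINITY_DN59015_c0_g1, 90.2 ± 10.8 to 25.9 ± 1.11 TPM in Ken and 83.2 ± 3.12 to 29.05 ± 1.47 in MH 40) and by a scarcer one. The scarcer L19-1 entry (TRINITY_DN51645_c0_g1) was at 18.6, 15.3 and 17.4 TPM in Ken control and 17.3, 25.4 and 22.3 in Ken 40, with log2 changes of -0.34 ± 0.23 (SE, adjusted p = 0.25) in Ken 38 and -0.02 ± 0.23 (SE, adjusted p = 0.99) in Ken 40. In MH it was at 8.88, 7.05 and 7.75 TPM in the control, 7.49, 7.52 and 11.4 at 38/33 °C and 6.11, 5.97 and 8.64 at 40/35 °C, with overlap between the groups. Its change in MH 38 was -0.51 ± 0.23 (SE, adjusted p = 0.071), or -0.83 (adjusted p = 0.00207) without replicate 3, and in MH 40 it was called lower at -0.96 ± 0.23 (SE, adjusted p = 0.00117), a value that library totals turned to 0.04 (adjusted p = 0.877). The difference of responses at 40/35 °C was -0.94 ± 0.32 (SE, adjusted p = 0.041), and -0.42 (adjusted p = 0.355) with library totals. A short L12 entry (TRINITY_DN31558_c0_g1) had 31, 16 and 63 counts in Ken control and 1, 0 and 0 in Ken 38, too few for a fold change, with 17, 25 and 14 in Ken 40. In MH it went from 54, 46 and 32 counts to 3, 4 and 0 in MH 38 and 0, 5 and 3 in MH 40, so this entry was near 0 in 3 of the 4 heated groups.

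These unequal changes altered the balance of 50S to 30S transcripts. The ratio of the summed TPM of nuclear 50S genes to that of nuclear 30S genes was 2.66 ± 0.102 in unheated Ken, 1.84 ± 0.0759 at 38/33 °C and 2.30 ± 0.0734 at 40/35 °C (SD, n = 3). In MH it was 2.58 ± 0.0646, 2.87 ± 0.205 and 3.28 ± 0.0588 in the same order. Replicates 1 and 2 of MH 38 alone had a mean ratio of 2.99. L24 and L3-2 together made up 6.10% of the 50S sum in Ken control and 5.52% in MH control, but 19.1% in Ken 40 and 38.4% in MH 40. Without these 2 genes, which were chosen after their values were seen, the ratio was 2.50 ± 0.0945, 1.54 ± 0.0496 and 1.86 ± 0.0735 in Ken and 2.44 ± 0.0714, 2.15 ± 0.0959 (2.11 over replicates 1 and 2) and 2.02 ± 0.0927 in MH. The direction in MH thus turned from a rise to a fall when 2 of the 29 genes were left out.

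Members of plastid-encoded families were scarce and changed less. Their 20 entries summed to 133, 125 and 127 TPM in Ken control and 60.9, 69.5 and 51.6 in MH control. In Ken 38 the sums were 59.7, 145 and 53 TPM, and the high second library came with an L2 entry (TRINITY_DN62161_c1_g7, named after its values were seen) at 11.4, 71.9 and 12.5 TPM. How RNA was selected for the libraries, by poly(A) tails or by removal of ribosomal RNA, is not given in the sources used here, and plastid mRNAs mostly lack long poly(A) tails. Of the 14 tested, 5 fell in Ken 38 and 8 in Ken 40, 4 fell and 1 rose in MH 38, and 8 fell in MH 40. Their median log2 changes were -0.47, -1.22, -0.70 and -1.94. The counts in MH 38 were the same without its replicate 3, with a median of -0.88. Among all described genes, 29.2%, 32.5%, 30.6% and 42.1% fell in Ken 38, Ken 40, MH 38 and MH 40. The share of the 14 that fell was thus near that background in Ken 38 and MH 38, and above it in Ken 40 and MH 40.

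L2 (TRINITY_DN53285_c0_g6), a core protein of the peptidyl transferase region, was at 6.86, 5.75 and 9.27 TPM in the control, 1.18, 1.87 and 0.60 at 38/33 °C and 3.02, 3.88 and 4.67 at 40/35 °C in Ken. Its MH values were 11.2, 13.1 and 8.04 TPM in the control, 2.73, 2.06 and 2.59 at 38/33 °C and 1.1, 1.29 and 1.47 at 40/35 °C. Its log2 changes were -3.05 ± 0.34 (SE, adjusted p = 3.11e-07) in Ken 38 and -3.81 ± 0.35 (SE, adjusted p = 7.59e-09) in MH 40, with no overlap of libraries. The rule under which this L2 entry was named required that absence of overlap in both comparisons. S3 (TRINITY_DN62161_c1_g4), which helps to form the mRNA entry site in bacteria, fell from 2.82, 2.21 and 1.8 TPM in MH control to 0.16, 0.19 and 0.24 in MH 40 (log2 -4.23 ± 0.48 (SE, adjusted p = 1.60e-07)). A second S3 entry (TRINITY_DN42996_c1_g2), chosen after its values were seen, was the only tested plastid-encoded entry to rise from MH 38 to MH 40, from 0.40, 0.16 and 0.28 to 1.33, 1.22 and 2.07 TPM (log2 2.40 ± 0.58 (SE, adjusted p = 0.0038); 2.44 without MH 38 replicate 3).

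L20 (TRINITY_DN42333_c1_g8), a large-subunit assembly protein in bacteria, was at 1.91, 1.73 and 2.32 TPM in Ken control and 1.71, 1.71 and 2.04 in Ken 40, which overlapped, with a log2 change of -0.53 ± 0.28 (SE, adjusted p = 0.124). In MH 40 it stood at 0.28, 0.23 and 0.41 TPM against 1.62, 1.38 and 1.29 in the control (-2.97 ± 0.31 (SE, adjusted p = 3.68e-08)). The most abundant entry of these families, S18 (TRINITY_DN60678_c0_g1), did not match a plastid genome entry by its text. It was at 58.5, 65.6 and 45.8 TPM in Ken control and 12.2, 14.1 and 16.7 in Ken 40 (log2 -3.16 ± 0.40 (SE, adjusted p = 1.16e-05)), but at 7.85, 19.04 and 15.9 TPM in MH control and 17.4, 12.5 and 13.7 in MH 40, where the libraries overlapped (-0.78 ± 0.37 (SE, adjusted p = 0.0752)). The 1 rise called in MH 38 was a short S12-B entry (TRINITY_DN45582_c1_g8), with 0 counts in all MH control libraries and 23, 20 and 0 in MH 38 after rounding, so 1 MH 38 library did not differ from the control.

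All 3 tested elongation factors fell in each of the 4 heat comparisons. EF-Tu, which delivers charged transfer RNAs to the ribosome, had the highest level among them (TRINITY_DN53213_c0_g1). In Ken it was at 384, 347 and 343 TPM in the control, 72.5, 61.3 and 74.1 at 38/33 °C and 56.1, 30.99 and 43.5 at 40/35 °C. For MH the values were 341, 387 and 349 TPM in the control, 64.7, 45.8 and 121 at 38/33 °C and 24.1, 27.1 and 19.2 at 40/35 °C. Control libraries of the materials overlapped, and all heated libraries were below all controls. Its log2 changes were -3.10 ± 0.30 (SE, adjusted p = 4.53e-07) and -3.72 in Ken and -3.01 (-3.54 without replicate 3) and -4.92 ± 0.33 (SE, adjusted p = 2.08e-09) in MH. The second EF-Tu entry (TRINITY_DN59774_c0_g6) fell from 81.02 ± 4.798 to 11.5 ± 4.25 TPM in MH 40 (SD, n = 3).

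EF-G (TRINITY_DN45863_c1_g6), which moves the ribosome along the mRNA, was at 115, 107 and 106 TPM in the control, 19.9, 18.6 and 20.6 at 38/33 °C and 28.9, 29.5 and 28.99 at 40/35 °C in Ken. In MH it was at 83.98, 76.5 and 73.5 TPM in the control, 18.4, 19.1 and 29.6 at 38/33 °C and 11.7, 13.8 and 17.9 at 40/35 °C. Ken 40 libraries were all above Ken 38 libraries, by 0.65 ± 0.19 (SE, adjusted p = 0.0122), while the second step in MH was -0.69 ± 0.19 (SE, adjusted p = 0.00988). That call in MH rested on MH 38 replicate 3, without which the step was -0.38 (adjusted p = 0.0755). All 3 factors fell more in MH than in Ken at 40/35 °C, with differences of responses of -1.19 and -1.56 for the EF-Tu entries and -0.87 for EF-G (adjusted p = 0.0411, 0.00102 and 0.0219). The size of such differences depended on the scaling. Over all members, their median at 40/35 °C was -1.23, and -0.70 with library totals.

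The sigma factors had the lowest median of the 6 roles in Ken: -3.20 in Ken 38 and -3.79 in Ken 40, with -2.73 and -4.05 in MH. Of 12 tested, 10 fell in Ken and 10 in MH at 38/33 °C, 11 and 9 at 40/35 °C, and none rose. The falls in MH 38 numbered 10 without its replicate 3 (median -3.65). SIGA, the principal sigma factor of leaf plastids, was carried by 6 entries, and the 2 with the highest mean TPM over the 18 libraries are given first. The entry TRINITY_DN58675_c1_g3 was at 83.1, 82.98 and 85.1 TPM in the control, 1.9, 2.22 and 2.9 at 38/33 °C and 8.93, 5.67 and 6.01 at 40/35 °C in Ken. The MH libraries held 65.5, 74.9 and 56.6 TPM in the control, 5.95, 8.21 and 12.6 at 38/33 °C and 2.72, 2.47 and 2.26 at 40/35 °C. Ken 38 libraries were the lowest in Ken, and all Ken 40 libraries were above them, whereas in MH the order of the steps was reversed. Log2 changes were -5.69 ± 0.29 (SE, adjusted p = 4.60e-12) in Ken 38 and -3.65 ± 0.26 (SE, adjusted p = 9.64e-10) in MH 38, which differed by 2.03 ± 0.35 (SE, adjusted p = 5.67e-04). That difference was 1.61 (adjusted p = 1.20e-05) without MH 38 replicate 3, and the change in MH 38 -4.07.

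A second SIGA entry (TRINITY_DN35168_c1_g1) followed the first, at 85.2, 71.7 and 75.8 TPM in the control, 2.19, 2.36 and 3.91 at 38/33 °C and 8.36, 7.78 and 6.13 at 40/35 °C in Ken. From Ken 38 to Ken 40 both entries rose, by 1.72 ± 0.25 (SE, adjusted p = 2.94e-05) and 1.03 ± 0.28 (SE, adjusted p = 0.00665). Another pair of SIGA entries, chosen after their values were seen, kept falling in Ken. TRINITY_DN34489_c0_g5 was at 92.9, 90.1 and 91.7 TPM in the control, 15.5, 13.9 and 12.1 at 38/33 °C and 4.94, 5.35 and 3.36 at 40/35 °C, a step of -1.51 ± 0.37 (SE, adjusted p = 0.0065), and TRINITY_DN58675_c1_g4 changed by -1.43 ± 0.40 (SE, adjusted p = 0.0117). In the controls this pair was higher in Ken (91.6 ± 1.42 and 75 ± 4.45 TPM) than in MH (36.9 ± 2.69 and 34.8 ± 10.4 TPM), with called log2 differences of -1.32 and -1.13. The files do not tell whether the 2 pairs are 2 genes or fragments of more.

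SIGE (TRINITY_DN59117_c0_g2), the counterpart of the stress- and light-responsive SIG5 of Arabidopsis, was the most abundant sigma factor over the 18 libraries and fell at both heat steps. In Ken it was at 80.9, 76.1 and 70.9 TPM in the control, 54.5, 55.2 and 46.8 at 38/33 °C and 10.6, 8.43 and 7.01 at 40/35 °C. MH libraries were at 63.7, 48.3 and 43.9 TPM in the control, 38.6, 35.8 and 42.3 at 38/33 °C and 15.4, 21.02 and 20.6 at 40/35 °C. All libraries at 38/33 °C lay below the controls of their material, and the Ken 40 libraries lay below all others. The first step was -1.05 ± 0.17 (SE, adjusted p = 3.32e-05) in Ken and -1.19 ± 0.17 (SE, adjusted p = 8.65e-06) in MH, or -1.36 without MH 38 replicate 3. The step from 38/33 to 40/35 °C was -2.57 ± 0.18 (SE, adjusted p = 4.54e-09) in Ken and -1.22 ± 0.17 (SE, adjusted p = 2.14e-05) in MH, or -1.08 without that library. Against control, Ken 40 changed by -3.62 ± 0.19 (SE, adjusted p = 2.08e-12) and MH 40 by -2.41 ± 0.18 (SE, adjusted p = 1.95e-10), so that SIGE fell more in Ken, with a difference of responses of 1.21 ± 0.24 (SE, adjusted p = 7.62e-04).

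SIGD (TRINITY_DN48111_c0_g6), whose Arabidopsis counterpart SIG4 acts on a plastid NADH dehydrogenase-like gene, was present mainly in Ken control. Its libraries there held 12.6, 14.2 and 13.02 TPM (444, 575 and 542 counts), against 0.10, 0.02 and 0.27 in Ken 38 and 0.08, 0.17 and 0.12 in Ken 40 (1 to 12 counts). In MH it was at 0.27, 1.05 and 0.74 TPM in the control, 0.36, 0.20 and 0.63 at 38/33 °C and 1.51, 0.66 and 1.49 at 40/35 °C. MH control thus lay below Ken control in every library, by -4.22 ± 0.55 (SE, adjusted p = 9.47e-06), and all MH libraries held 62 counts or fewer. The fall was -7.03 ± 0.65 (SE, adjusted p = 3.55e-08) in Ken 38, and the differences of responses were 5.57 ± 0.82 (SE, adjusted p = 1.73e-04) and 7.18 ± 0.82 (SE, adjusted p = 3.05e-06). The first of these was 4.98 (adjusted p = 5.06e-05) without MH 38 replicate 3. SIGB (TRINITY_DN42015_c0_g4), whose Arabidopsis counterpart SIG2 acts on plastid transfer RNA genes, SIGF, the counterpart of the seedling factor SIG6, and SIGC fell in all 4 heat comparisons. SIGB went from 55.7 ± 4.65 to 17.5 ± 2.83 TPM in Ken and from 38.5 ± 2.91 to 6.86 ± 0.399 in MH (SD, n = 3), and the 2 SIGF entries and SIGC had log2 changes between -5.52 and -2.70. These 3 entries changed by -3.65, -3.74 and -3.99 in MH 38 without its replicate 3.

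**Figure D3:**
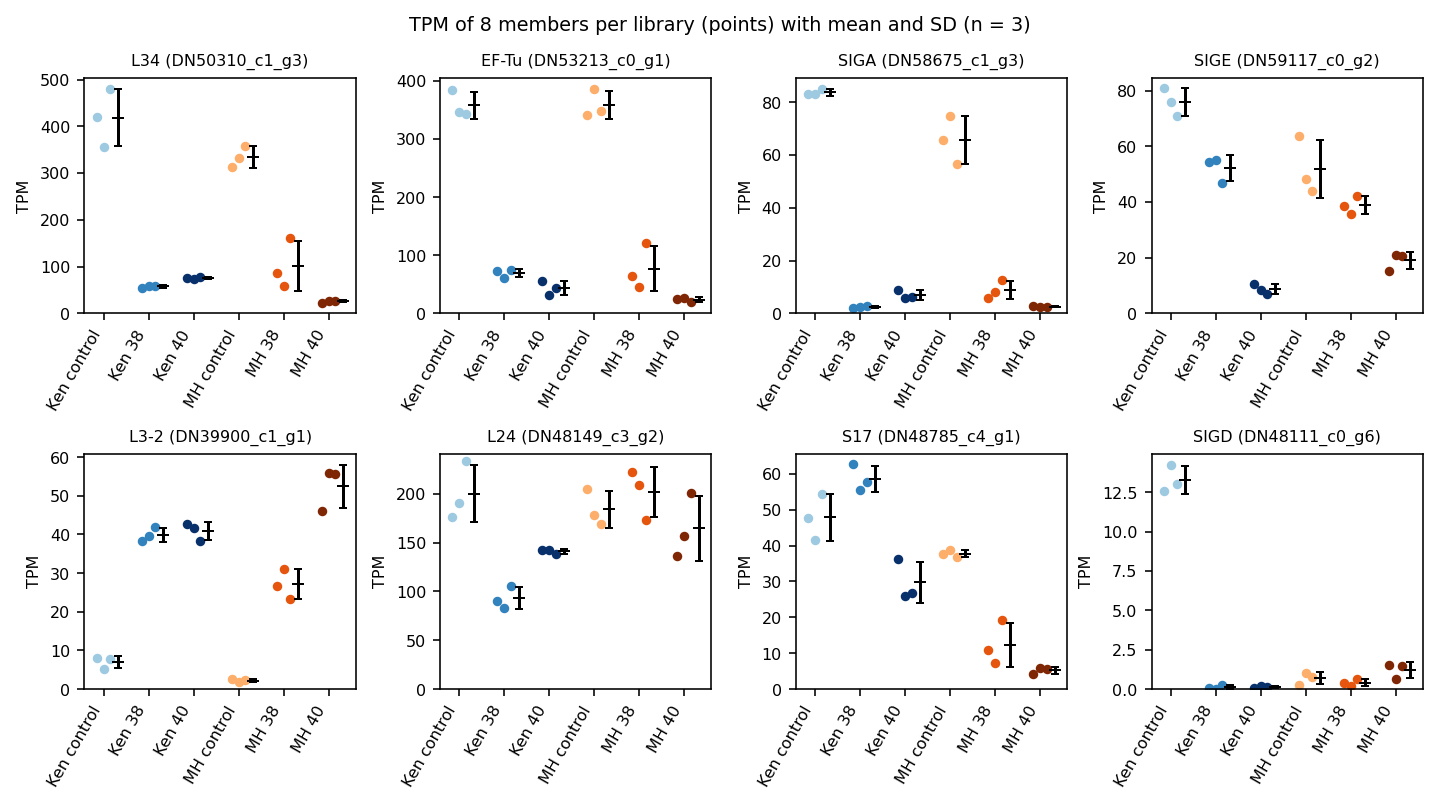
TPM in each library (points) with mean and SD (n = 3) for 8 members. L34, EF-Tu and SIGA drop at the first heat step in both materials. SIGD drops at that step in Ken and is low in all MH libraries. SIGE drops mainly at the second step in Ken, L3-2 rises in both materials, L24 changes little in MH, and S17 stays up in Ken 38 only among the heated groups.

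PTAC proteins fell by less. All 6 were tested; 5 fell in each material at 38/33 °C, 6 (Ken) and 5 (MH) at 40/35 °C, none rose, and the medians were -1.26, -1.46, -1.46 (-1.45 without replicate 3, with 5 falls) and -1.89. PTAC16 (TRINITY_DN61338_c0_g2), found with the plastid chromosome and on thylakoid membranes in Arabidopsis, was the most abundant. In Ken it was at 200.3, 187 and 221 TPM in the control, 172, 153 and 171 at 38/33 °C and 16.99, 23.6 and 14.7 at 40/35 °C. For MH the values were 406, 396 and 401 TPM in the control, 35.02, 24.5 and 132 at 38/33 °C and 25.1, 34.6 and 39.5 at 40/35 °C. The change was not called in Ken 38 (log2 -0.96 ± 0.50 (SE, adjusted p = 0.159)), although all its libraries lay below the controls, and PTAC16 fell in Ken 40 (-3.70 ± 0.55 (SE, adjusted p = 1.32e-04)). In MH it fell at the first step (-3.11 ± 0.54 (SE, adjusted p = 5.11e-04)), and this change was -4.29 without replicate 3. The difference of the responses at 38/33 °C did not pass (-2.15 ± 0.71 (SE, adjusted p = 0.0732)), and it was -3.34 (adjusted p = 1.31e-07) without MH 38 replicate 3, which held 132 TPM.

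PTAC14 (TRINITY_DN47820_c0_g2), a SET-domain protein bound to the plastid polymerase, was at 13.3, 13.1 and 15.9 TPM in the control, 3.16, 2.96 and 3.02 at 38/33 °C and 3.54, 3.71 and 4.06 at 40/35 °C in Ken. MH gave 11.2, 8.57 and 7.91 TPM in the control, 1.85, 2.16 and 4.86 at 38/33 °C and 1.6, 1.78 and 1.86 at 40/35 °C. It changed by -2.66 ± 0.32 (SE, adjusted p = 7.86e-07) in Ken 38 and -3.28 ± 0.33 (SE, adjusted p = 2.89e-08) in MH 40, the steepest fall of a polymerase-bound PTAC protein here. PTAC12 (TRINITY_DN57724_c0_g1), also called HEMERA and known for a second role in phytochrome signalling, fell from 12.5 ± 1.099 to 6.14 ± 0.518 TPM in Ken and from 12.2 ± 1.92 to 5.39 ± 2.21 in MH (SD, n = 3). PTAC7 (TRINITY_DN43727_c0_g2) fell in Ken 38 and regained most of its level in Ken 40, from 20.7, 20.2 and 23.9 to 33.6, 36.9 and 39.2 TPM (0.92 ± 0.18 (SE, adjusted p = 5.53e-04)), while MH 40 stood at 10.4, 11.3 and 11.5. A PTAC10 entry (TRINITY_DN48429_c0_g1) was at 9.06, 6.76 and 7.62 TPM in MH control and 7.03, 7.28 and 7.25 in MH 40, with overlap, and its called change of -0.86 ± 0.19 (SE, adjusted p = 5.35e-04) turned to 0.14 (adjusted p = 0.545) with library totals as the scaling.

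The second heat step was also taken within each material, and the difference between the 2 steps was not tested. From Ken 38 to Ken 40, 18 of the 79 members rose and 9 fell (median 0.03), beside 14.3% and 16.2% of all tested genes. Together the rises and falls made up 34.2% of the members, near the 30.5% of all tested genes. With library totals as the scaling, 16 rose and 14 fell (median -0.07). From MH 38 to MH 40, 2 rose and 53 fell (median -1.14), beside 11.2% and 15.0%. Of the 44 tested nuclear ribosomal proteins, 13 rose and 4 fell in Ken, and 1 rose and 33 fell in MH (1 and 26 without MH 38 replicate 3). The 13 rises in Ken included L6, the 3 L9 entries and an S20 entry (TRINITY_DN56094_c1_g1). The 4 falls, named after their values were seen because they were few, were L1, S17, PSRP2 (TRINITY_DN40394_c1_g1) and a PSRP3 entry (TRINITY_DN36242_c2_g1). Without MH 38 replicate 3, 3 members rose and 41 fell in MH (median -0.83), and with library totals 3 rose and 45 fell.

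Set against each other at the same temperature, the materials differed in fewer members at 38/33 °C than at 40/35 °C. Between MH 38 and Ken 38, 9 members were higher and 17 lower in MH, beside 19.9% and 14.7% of all genes. In either direction this was 32.9% of the members, near the 34.7% of all tested genes. Without MH 38 replicate 3 the counts were 8 and 36. With library totals as the scaling they turned round, to 21 higher and 9 lower, and the median went from -0.18 to 0.11. Between MH 40 and Ken 40, 5 were higher and 53 lower in MH (median -1.56), beside 28.2% and 20.3%, together 48.5%. Library totals gave 13 higher and 45 lower here (median -0.98). The test of the difference itself, the response of MH minus that of Ken, gave 8 positive and 5 negative calls at 38/33 °C, beside 6.07% and 4.78% of all genes. At 40/35 °C it gave 5 positive and 40 negative calls (median -1.23), beside 10.3% and 11.1%, with 29 of the 40 negative calls among the 44 nuclear ribosomal proteins. A negative call meant a lower change in MH than in Ken. It was a deeper fall in S1 (-1.44 ± 0.21 (SE, adjusted p = 4.13e-05)), L6 (-1.83 ± 0.33 (SE, adjusted p = 4.04e-04)) and the first S20 entry (-2.19 ± 0.35 (SE, adjusted p = 7.69e-05)). Not every negative call came with a fall in Ken, as the scarcer L19-1 entry changed by only -0.02 in Ken 40. The 5 positive calls were L3-2, SIGD, SIGE, S18 (TRINITY_DN60678_c0_g1) and the second S3 entry, described above. At 38/33 °C, leaving out MH 38 replicate 3 moved the counts to 7 positive and 17 negative, and library totals moved them to 11 and 3. At 40/35 °C library totals gave 10 positive and 29 negative calls (median -0.70), so the size of this difference depended on the scaling.

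**Figure D4:**
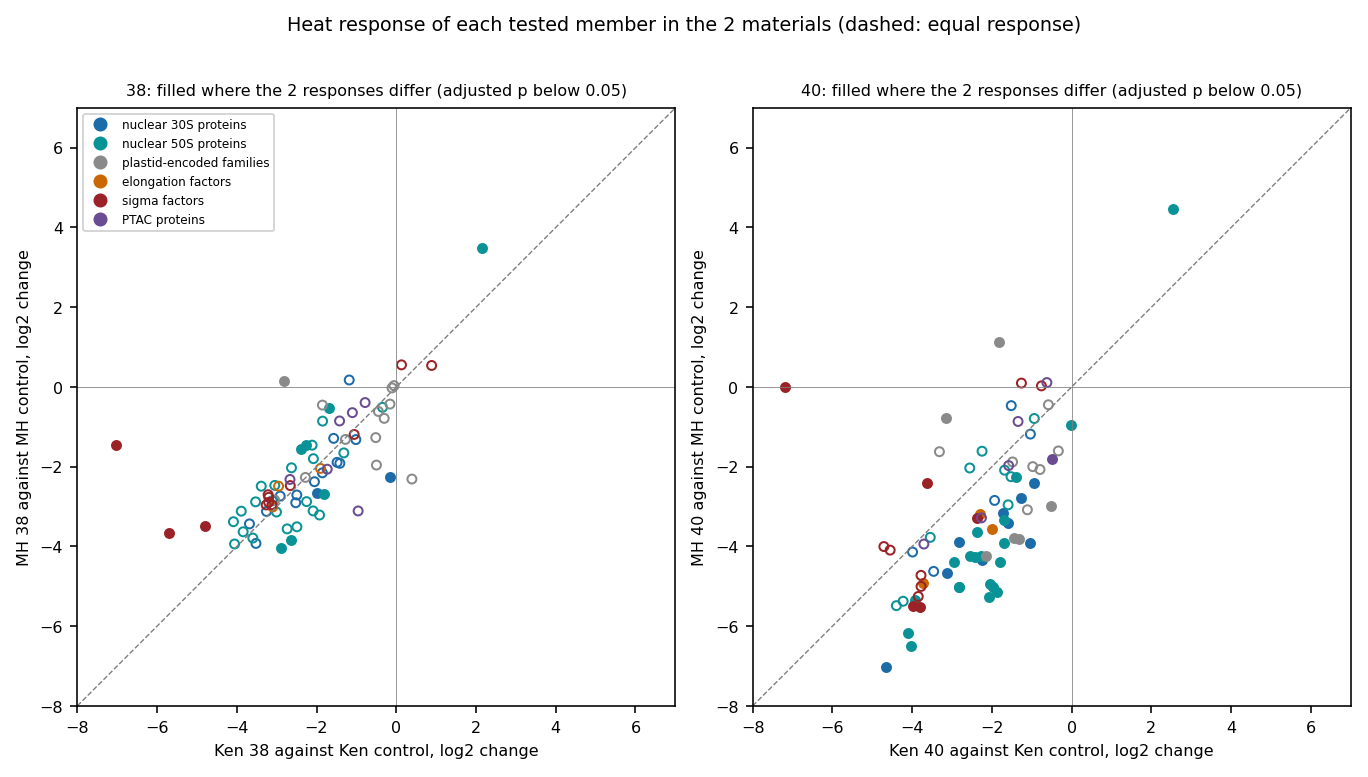
Log2 change in MH against log2 change in Ken for the tested members at 38/33 °C (left) and 40/35 °C (right); filled points are members whose 2 responses differed at an adjusted p below 0.05, and the dashed line marks equal responses. At 38/33 °C the points lie along the line, and at 40/35 °C 61 of the 79 members had a lower fitted change in MH. A change against a group with 3 counts or fewer in all is not drawn.

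The unheated materials were compared in the same way. In MH control against Ken control, 4 members were higher and 16 lower in MH, beside 10.1% and 11.7% of all genes. The 20 together made up 25.3% of the members, near the 21.8% of all tested genes. The 3 members with the smallest adjusted p were L3-2 (-1.78 ± 0.19 (SE, adjusted p = 3.90e-07)), SIGD (-4.22 ± 0.55 (SE, adjusted p = 9.47e-06)) and the second L9 entry (1.22 ± 0.21 (SE, adjusted p = 1.71e-04)). L3-2 and SIGD were lower in MH and L9 was higher. L15 (TRINITY_DN38897_c3_g2) was also lower in MH control, at 73.1, 81.9 and 84.7 TPM against 158, 125 and 158, and was chosen after its values were seen.

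Other factors of plastid gene expression, taken from text lists rather than from their values, were counted beside the members. They describe the wider pathway, and the counts for the 4 heat comparisons are given in the order above. Of 7 tested chloroplast ribonucleoproteins, which stabilise and edit plastid mRNA, 7 fell in each comparison. Of 11 initiation, release and recycling factors, 11, 10, 8 and 10 fell and none rose. Of 30 aminoacyl-tRNA ligases of chloroplasts or of chloroplasts and mitochondria, 27, 24, 22 and 26 fell, and 3 rose in Ken 40. Of 6 partners of the plastid polymerase, 6, 5, 6 and 6 fell. Of 7 genes for ribosome assembly and rRNA processing, 5, 7, 6 and 5 fell, and of 9 chloroplast ribonucleases 8, 8, 6 and 8 fell. Of 11 CRM-domain splicing proteins, 8, 10, 6 and 9 fell and 1 rose in MH 38. Without MH 38 replicate 3 the falls in MH 38 numbered 7, 8, 22, 6, 5, 6 and 7 in these 7 lists. Beside them, 29.2%, 32.5%, 30.6% and 42.1% of all described genes fell in the 4 heat comparisons. These shares are the scale for the lists below as well.

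Pentatricopeptide repeat proteins, which act on single organelle transcripts, showed 12 rises and 34 falls in Ken 38 and 27 rises and 50 falls in MH 40 among 109 tested, with medians of -0.25 and -0.61. Described genes as a whole had 18.8% rises and 29.2% falls in Ken 38 and 29.7% and 42.1% in MH 40. The falls of pentatricopeptide repeat proteins were thus near that background. The 8 tested core subunits of the plastid RNA polymerase, most of them plastid-encoded, showed 1 rise and 2 falls in Ken 38, 1 rise and no fall in Ken 40, 1 and 1 in MH 38 (2 and 2 without replicate 3) and 1 and 4 in MH 40. The summed TPM of the 10 entries of that list went the other way. It was 22.6, 12.2 and 13.8 in Ken control, 26.8, 26.2 and 23.5 in Ken 38 and 17.1, 20.03 and 21.9 in Ken 40, and 9.82, 10.4 and 10.7, 20.96, 20.4 and 20.01 and 14.9, 18.2 and 14.4 in MH. All heated MH libraries were above the MH controls on that scale, while Ken control overlapped with Ken 40 but not with Ken 38. A further 34 ribosomal proteins and factors were described after bacterial entries without the word chloroplast and lay outside the rule. Of them, 25 fell in Ken 38 and 25 in MH 40, with medians of -1.04 and -1.15, and which of them act in plastids is not given by their descriptions.

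The ribosomes of the other compartments gave a scale for the loss. Of 244 tested cytosolic ribosomal protein genes, 125 fell and 11 rose in Ken 38 (median -0.65), and 152 fell and 21 rose in MH 40 (median -1.12). Their summed TPM was 24622 ± 2028 in Ken control and 27598 ± 2173 in Ken 40, and 18371 ± 963 in MH control and 18766 ± 2683 in MH 40 (SD, n = 3), with overlap in both materials. Of 27 mitochondrial ribosomal protein genes, 15 fell and none rose in Ken 38, and 14 fell and 4 rose in MH 40 (medians -1.02 and -0.85). The nuclear genes for plastid ribosomal proteins amounted to 19.02% ± 1.26 of the cytosolic sum in Ken control, 5.07% ± 0.104 at 38/33 °C and 5.01% ± 0.863 at 40/35 °C. In MH they amounted to 25.5% ± 0.762, 5.80% ± 0.634 (5.97% and 5.096% in replicates 1 and 2) and 3.93% ± 0.0103. The mitochondrial sum stayed between 1.17% and 1.84% of the cytosolic sum in all 18 libraries.

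**Figure D5:**
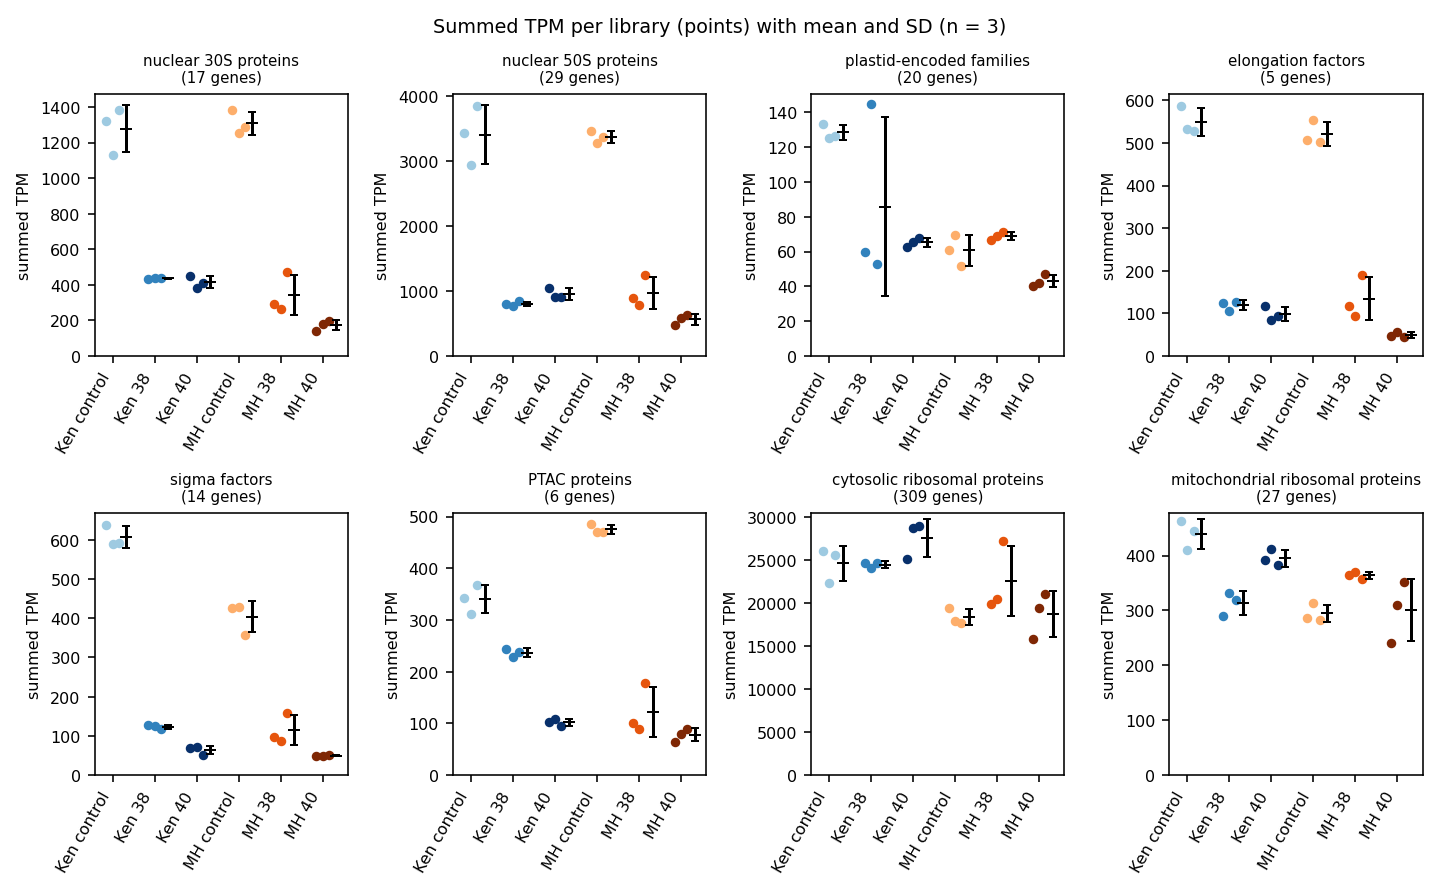
Summed TPM per library (points) with mean and SD (n = 3) for the 6 roles and for cytosolic and mitochondrial ribosomal proteins. Nuclear 30S and 50S proteins, elongation factors and sigma factors drop in all heated libraries, PTAC proteins drop in 2 steps in Ken, and the sums of the other compartments do not separate in the same way.

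Markers of other leaf cell types moved in the same libraries, and their part in the results was not tested. The 29 light-harvesting genes of mesophyll had 22 tested, of which 15, 19, 19 and 20 fell in Ken 38, Ken 40, MH 38 and MH 40, and their sum ended at 214, 143 and 146 TPM in Ken 40 and 82.4, 169.8 and 275 in MH 40. Of 25 tested 3-ketoacyl-CoA synthase genes of the epidermis list, 13, 14, 15 and 19 fell. The summed TPM of that list ranged from 733 to 885 in Ken control, 107 to 139 in Ken 38, 51.1 to 66.1 in Ken 40, 1088 to 2836 in MH control, 158 to 304 in MH 38 and 29.9 to 46.1 in MH 40. Xylem genes, 18 tested, had 11, 16, 7 and 13 falls, with sums of 425 to 616, 159 to 165, 104 to 109, 521 to 835, 244 to 333 and 134 to 158 TPM over the same groups. The 5 phloem genes summed to 78.2 to 99.5, 85.1 to 99.5, 59.7 to 69.6, 86.8 to 100.3, 66.4 to 71.4 and 34.4 to 72.0 TPM, with 3, 3, 3 and 4 falls. The 5 guard cell genes summed to at most 12.5 TPM in any library and had 0, 1, 2 and 3 falls among 4 tested. No description named the epidermal markers MERISTEM L1 and PROTODERMAL FACTOR 1, the guard cell marker MYB60 or the phloem transporter SUC2. Without MH 38 replicate 3 the falls in MH 38 numbered 20 (mesophyll), 18 (epidermis), 6 (xylem), 3 (phloem) and 3 (guard cells). Of all described genes, 29.2%, 32.5%, 30.6% and 42.1% fell in Ken 38, Ken 40, MH 38 and MH 40.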

How the data were processed

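Leaf RNA-seq of 18 libraries was used, in 6 groups of 3 defined by material and temperature regime in the labels. The authors deposited 1 table for the series with an estimated count per assembled gene and library, and beside it a value that sums to 967,894 to 991,008 per library and was read as the authors' deposited TPM. Per the submitters' processing notes reads were trimmed with cutadapt 1.9, and how the transcripts were assembled and quantified is not given in the sources used here. TPM carries no scaling for composition, so TPM ratios and the log2 changes below can differ in size.

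Estimated counts were rounded to whole numbers. Genes were kept with edgeR's filterByExpr (minimum count 10, minimum total 15), which left 70,022, and scaled by TMM (factors 0.684 to 1.54). A quasi-likelihood model with 6 group means and all 18 libraries (edgeR 4.0.16, limma 3.58.1, R 4.3.3) gave log2 changes, SEs and p-values adjusted by Benjamini-Hochberg over all tested genes in each of 11 comparisons. DESeq2 1.42.0 served as an alternative. Since labels only number biological replicates, a p-value here reflects only how far these libraries spread. Counts with known changes were also simulated, in both runs from the mean levels of Ken control and the gene spreads fitted over all 18 libraries. For Ken 38 against Ken control, over 35,020 genes, 6% of genes changed 2-fold and 46% of those changed 4-fold were called. For MH 40 against MH control, over 35,022 genes, these shares were 8% and 45%. Only 100 genes were changed at each fold, a far smaller share than was called in the real heat comparisons. The adjusted cut-off was therefore stricter in the simulation, and these shares do not tell how many changes the real tests missed.

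The text names, in each heat comparison and role, the 2 called members lowest in adjusted p with no overlap of libraries, the 2 that moved against the common direction, the most abundant member of each role, and the 3 lowest in adjusted p in the other tests named by the rule, at 1 TPM or more. These were 27 members. In a heat comparison that named a member by adjusted p, absence of overlap was a condition of the rule. It therefore adds no support there. Entries named outside the rule, including the second S20 entry and the third L9 entry, were chosen after their values were seen. The members and lists were chosen with earlier results of these data known. The list named after bacterial entries, a change to the polymerase list and the ratio without L24 and L3-2 were added after seeing the data.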

Additional observations from a re-analysis of the deposited data

Results flagged for a closer look

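The responses of MH and Ken to heat differed by a test of the difference itself in 13 members at 38/33 °C and in 45 at 40/35 °C. These were 16.5% and 57.0% of the tested members, beside 10.8% and 21.4% of all tested genes. At 38/33 °C the 3 called members lowest in adjusted p were SIGD (log2 difference, MH minus Ken, 5.57), the SIGA entry TRINITY_DN58675_c1_g3 (2.03) and L3-2 (1.33). At 40/35 °C they were the L9 entries TRINITY_DN54633_c0_g2 (-3.26) and TRINITY_DN54633_c0_g1 (-3.04) and again SIGD (7.18). SIGD had 12, 44 and 28 counts in MH control against 444, 575 and 542 in Ken control.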

How the results depend on the processing

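Counts of called members in the 4 heat comparisons stayed within 1.5 times under every alternative run. Other counts moved further. With only the groups compared in the fit, Ken 40 against Ken 38 had 43 called members in place of 27, MH control against Ken control 33 in place of 20, and MH 38 against Ken 38 14 in place of 26. With 1 entry per description the first 2 of these had 16 and 13. At an adjusted p below 0.01, MH control against Ken control had 12, MH 38 against Ken 38 had 13, and the difference of responses at 38/33 °C had 6 in place of 13. Leaving out 1 library at a time gave 60 to 63 (Ken 38), 63 to 69 (Ken 40), 61 to 65 (MH 38) and 68 to 70 (MH 40) against control. It gave 19 to 28 and 43 to 59 for the second heat step in Ken and MH, and 12 to 18, 16 to 44 and 55 to 58 between materials (controls, 38/33 and 40/35 °C). The differences of responses then had 9 to 24 and 36 to 42. The lowest of the control counts, 12, came without MH control replicate 3, with 13 without Ken control replicate 1 or 3. The 16 came without Ken 38 replicate 2, and the 44 and the 24 without MH 38 replicate 3.

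Scaling mattered for sizes. With library totals in place of TMM the median of described genes moved from -0.07, -0.10, -0.08 and -0.29 to 0.42, 0.30, 0.71 and 0.68 in the 4 heat comparisons, and members rising and falling numbered 2 and 57, 1 and 59, 6 and 56, and 5 and 61. The members' medians were then -1.67, -1.56, -1.54 and -2.56 in Ken 38, Ken 40, MH 38 and MH 40, and the share of rises among all called genes went from 56.1% to 76.6%, 54.8% to 68.4%, 63.5% to 85.2% and 63.4% to 79.3%. Called members that changed sign with library totals were L24 and PTAC10 (TRINITY_DN48429_c0_g1) in MH 38 and MH 40, and L19-1 (TRINITY_DN51645_c0_g1) in MH 40 at 0.04. S18 (TRINITY_DN60678_c0_g1), not called in MH, ranged in MH 38 from -0.36 to 0.40 with 1 library left out (0.15 in all), being -0.20 without MH control replicate 1 and -0.36 without MH 38 replicate 3, and went in MH 40 from -0.78 to 0.23 with library totals. The cause was not tested.

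Replicate numbers did not pair the samples: deviations of same-numbered samples correlated at -0.107 to 0.0786. With the replicate block, 62, 67, 64 and 68 members were called in the 4 heat comparisons, 29 and 53 in the second steps, 17, 27 and 57 between materials, and 11 and 45 for the differences of responses.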
